A study of Drosophila melanogaster with 30 samples.

Results

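The response to dietary cholesterol was followed in larvae in which the nuclear receptor HR3 was targeted by RNA interference. It is given by 10 of the 30 libraries of the series: 5 libraries of *HR3-RNAi* larvae refed with 80 µg/mL cholesterol for 10 h, set against 5 libraries of *HR3-RNAi* larvae kept at 1.2 µg/mL cholesterol. Libraries were assigned by their labels, and every gene was followed irrespective of how it moved. Of the 17713 features counted in each library, 11615 had enough reads to be tested.

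The series compared 3 genotypes on the 2 diets to ask which effects of cholesterol replenishment need HR3 or the kinase TOR. *HR3-RNAi* larvae carried Tub-GAL80TS/+, Tub-GAL4/+ and UAS-Hr3-RNAi/+, and control larvae carried the same driver without the RNAi construct. GAL80TS is a temperature-sensitive repressor that holds GAL4 off at 18 °C and frees it at 29 °C, and the tubulin promoter drives GAL4 in all tissues. RNAi was switched on 9 h before the larvae were placed on low-cholesterol medium. After 10 h on that medium, larvae were moved to 80 µg/mL cholesterol (refed) or to fresh 1.2 µg/mL medium (low cholesterol). Hours are those of the labels, from which the study's own text differs. Each library was made from 5 pooled whole late-third-instar larvae of unstated sex. A whole-larva library mixes all tissues, so fewer cells of a type and less RNA per cell cannot be told apart. The labels do not say whether replicates came from separate cultures, and the p-values measure only the spread between these libraries.

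Insects cannot build the sterol ring and must take cholesterol, or a sterol like it, from food. In the *Drosophila* midgut, uptake runs through NPC1b at the cell membrane, and small secreted or lysosomal proteins of the NPC2 family bind sterols and hand them on. HR96, a nuclear receptor that binds cholesterol, governs genes of sterol and triglyceride handling in this tissue, while HR3, the fly relative of the mammalian ROR receptors, is best known from the ecdysone cascade at metamorphosis.

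Total counts were 26309990 to 33331771 per library in refed and 20155933 to 27499731 in low-cholesterol *HR3-RNAi* larvae. The mean total was 5614381 higher after refeeding (exact permutation test, two-sided, p = 0.0159). Levels are therefore given as CPM, the counts scaled to the size of each library as adjusted by the TMM factors of edgeR. A level of 3 counts, taken as the smallest detectable one, was 0.0900 to 0.149 CPM by total counts alone, without these factors. This floor covers counting error only. *Hr3* itself had 7, 6, 5, 6 and 6 counts in refed *HR3-RNAi* libraries and 8, 8, 6, 5 and 4 counts in low-cholesterol *HR3-RNAi* libraries, against 2 to 17 and 5 to 13 counts in refed and low-cholesterol controls. It was too low to be tested, so a knockdown of the transcript was not detectable at this depth. The first principal component of log2 CPM (39.4% of the variance) did not separate the diets, with libraries 1 of both diets lowest at -40.8 (refed) and -26.0 (low cholesterol). The second (19.2%) did, at 4.96 to 19.97 in refed and -22.9 to -5.91 in low-cholesterol larvae. Both libraries numbered 1 were left out together as an alternative chosen after the data were seen, and its counts are given beside the lists that held several calls and lost any.

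Refeeding changed the expression of 400 of the 11615 genes tested (3.44%), counted at a Benjamini-Hochberg adjusted p under 0.05 from edgeR's quasi-likelihood test. Genes that passed are referred to as called. Of these, 184 rose (1.58%) and 216 fell (1.86%). The falls were smaller than the rises. They were also more numerous here and in 7 of the 10 fits that left out 1 library, while 3 of these fits had more rises (215 rises and 204 falls without low-cholesterol replicate 2). The median size of a change was 0.64 on the log2 scale for rises (quartiles 0.44 and 0.96) and 0.46 for falls (quartiles 0.34 and 0.77). A change of over 1 log2 unit was seen for 44 of the 184 rises (23.9%) and 33 of the 216 falls (15.3%). Changes under 0.5 made up 62 of the rises (33.7%) and 118 of the falls (54.6%). The median of all genes tested lay at -0.00. In 170 of the rising and 200 of the falling genes the 5 refed and the 5 low-cholesterol libraries did not overlap, as was so for 5.74% of all genes tested (2.88% higher and 2.87% lower). Summed over the genes that rose, expression was 49603 CPM in refed and 29892 CPM in low-cholesterol larvae, and over those that fell it was 22966 CPM in refed and 35557 CPM in low-cholesterol larvae. Named genes that lost their call in any of these 10 fits are given with the highest adjusted p and the library whose removal gave it. The number of calls was 254 without refed replicate 3, the lowest of the 10 fits, and 305 without both libraries numbered 1.

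**Figure D1:**
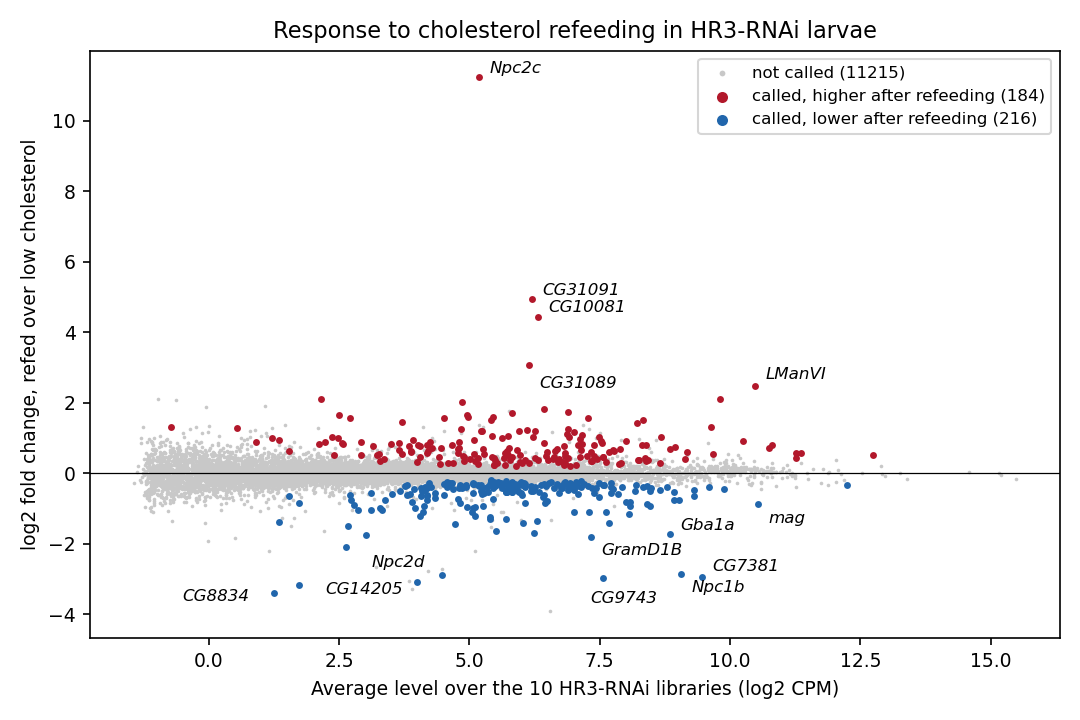
Change on refeeding in *HR3-RNAi* larvae for each of the 11615 genes tested (log2 fold change, refed over low cholesterol) against its mean level (log2 CPM); coloured points are the 184 genes that rose and the 216 that fell. The rises reach higher values than the falls, and 54.6% of the falls are smaller than 0.5.

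The genes were grouped by function in lists drawn up by name. The lists were chosen with earlier results of these data known, which may affect how the functions rank. Each list is described by its counts, beside the share of all genes that changed. The sterol group of lists, with uptake and carrier genes, lipoprotein receptors, scavenger receptors and acid lipases, changed most often. There 16 of 48 genes tested changed (33.3%, against 3.44% of all genes), 7 upward and 9 downward. In digestion, 21 of 139 changed (15.1%), 17 of them upward. Detoxification had 14 rises and 11 falls among 215 genes (11.6%), and lipid metabolism 7 rises and 1 fall among 69 (11.6%). At the other end, 1 of 420 genes of growth, translation and proteolysis changed (0.24%), and 1 of 56 in the hormone lists (1.79%). DESeq2's Wald test, which made more calls in all (705), called 18 genes in the sterol lists, 35 in digestion, 37 in detoxification, 14 in lipid metabolism, 20 in growth, translation and proteolysis (18 of them rises), and 1 in the hormone lists. Of 56 lists of function, 25 held no changed gene.

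**Figure D2:**
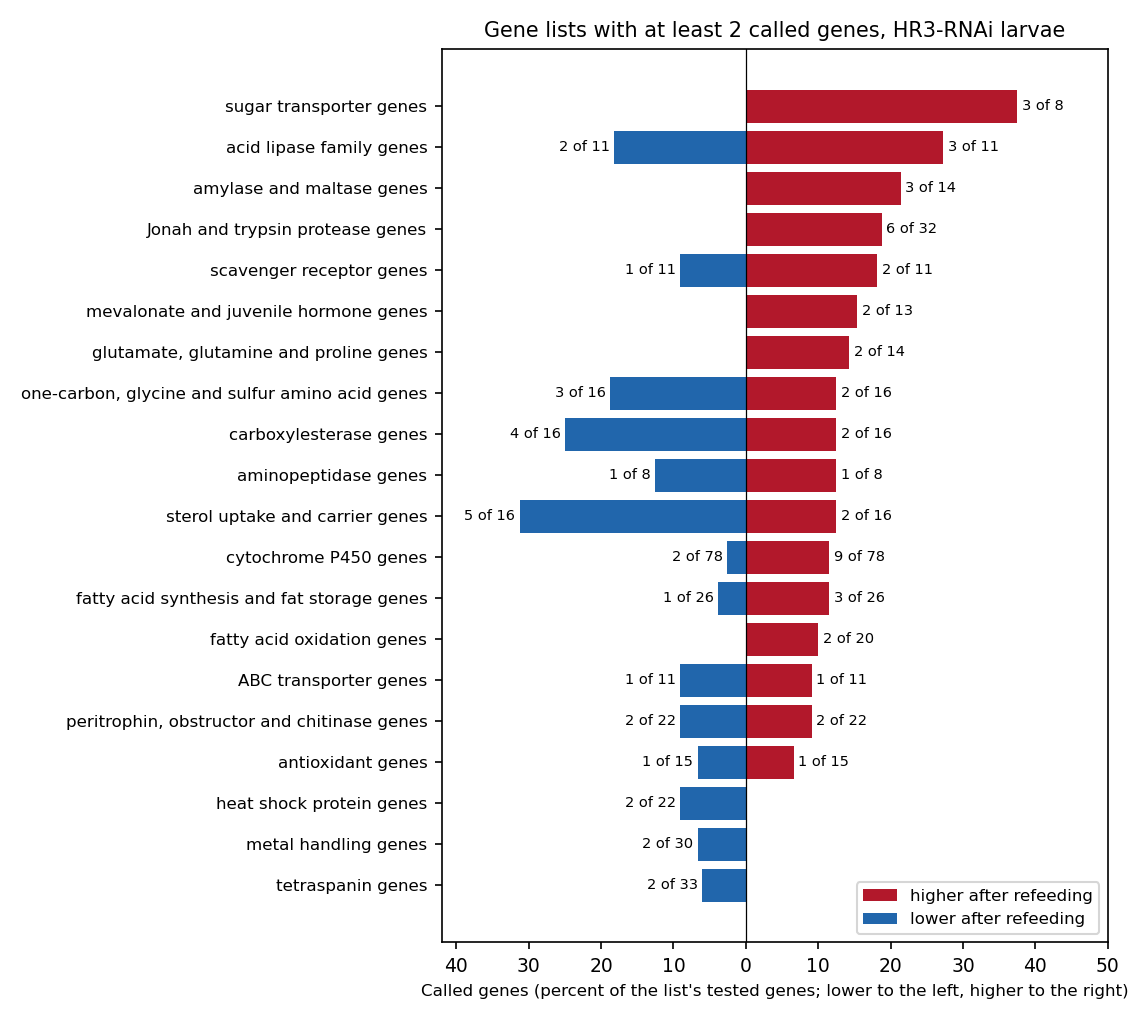
Share of the genes tested in each list that rose (bars right) or fell (bars left) on refeeding in *HR3-RNAi* larvae, in percent. Lists with at least 2 changed genes are shown, without tissue markers and without the 12 lists drawn up after the values were seen. Numbers beside bars are genes of genes tested. Sugar transporters, amylases and Jonah proteases hold only rises, and sterol uptake genes hold 2 rises and 5 falls.

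*Npc2c* and *Npc2d* moved in opposite directions. Both encode NPC2-family proteins and lie next to each other on chromosome 3R, 4168 bases apart and on opposite strands (BDGP6 annotation, also for all positions that follow). *Npc2c* (FBgn0037783, chromosome 3R from 10060252 to 10061136) had 1967, 1985, 2386, 1925 and 2095 counts in refed larvae, against 1, 2, 0, 0 and 0 counts in low-cholesterol larvae. All 5 low-cholesterol libraries were under the floor of 3 counts, and the refed mean of 72.0 CPM was at least 483-fold higher than the highest floor of any library (adjusted p = 9.67e-10). *Npc2d* (FBgn0037782, chromosome 3R from 10055356 to 10056083) was at 4.68, 3.12, 4.98, 4.39 and 9.39 CPM in refed larvae, against 37.6, 47.6, 35.6, 48.2 and 28.0 CPM in low-cholesterol larvae. Every refed library was below every low-cholesterol one (log2 fold change -2.88, standard error 0.265, adjusted p = 7.44e-05).

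The other NPC2 genes did not follow either of these. *Npc2a*, *Npc2b*, *Npc2f*, *Npc2g* and *Npc2h* had log2 fold changes of -0.04, 0.31, 0.08, 0.20 and 0.09, with adjusted p from 0.253 to 0.936, and *Npc2e* was too low to be tested. Per length of transcript, in the deposited FPKM (counts scaled by transcript length and library size; here and elsewhere ± is the SD, n = 5 in each group), *Npc2a*, the family member expressed in most tissues, stood at 106 ± 7.39 FPKM in refed larvae and 109.8 ± 8.31 FPKM in low-cholesterol larvae, while *Npc2c* was at 100.3 ± 15.3 FPKM after refeeding. Reads from near-identical copies of this family may be split between genes, depending on how they were counted.

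*Npc1b*, the membrane protein through which midgut cells take up sterol, fell about as much as *Npc2d*. Its level (FBgn0261675, chromosome X from 20934869 to 20939503) was 135, 119, 127, 108 and 163 CPM in refed larvae, against 918, 1024, 1041, 811 and 875 CPM in low-cholesterol larvae, and the groups were far apart (log2 fold change -2.84, standard error 0.117, adjusted p = 1.24e-07). Its ubiquitous relative *Npc1a*, which moves cholesterol out of lysosomes in every cell, was at 76.5 ± 2.58 CPM in refed larvae and 77.2 ± 4.21 CPM in low-cholesterol larvae, a log2 fold change of -0.01 (adjusted p = 0.948).

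*Hr96*, the cholesterol-binding nuclear receptor, also fell. Refeeding left it (FBgn0015240, chromosome 3R from 25025235 to 25029351) at 36.9, 35.8, 36.0, 32.1 and 37.1 CPM in refed larvae, against 91.3, 96.9, 106, 86.2 and 91.5 CPM in low-cholesterol larvae (log2 fold change -1.41, standard error 0.0648, adjusted p = 1.83e-07). The spread within each diet was small beside this gap. *GramD1B*, whose mammalian relatives carry cholesterol from the plasma membrane to the endoplasmic reticulum, behaved much like it. *GramD1B* (FBgn0085423, chromosome 2L from 3358640 to 3373372) was at 66.9, 71.4, 71.3, 65.1 and 83.9 CPM in refed larvae, against 236, 256, 282, 228 and 241 CPM in low-cholesterol larvae (log2 fold change -1.79, standard error 0.0819, adjusted p = 1.83e-07), with no overlap.

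Among the remaining sterol carriers, smaller changes were found. *Osbp*, the oxysterol-binding protein that exchanges sterol at Golgi contacts, fell (log2 fold change -0.38, adjusted p = 0.00543), as did its relative *CG3860* (log2 fold change -0.38, adjusted p = 0.012). *ScpX*, which joins a sterol carrier domain to a thiolase, rose (log2 fold change 0.30, adjusted p = 0.00903). *Osbp* overlaps *CG11771* on the opposite strand, and since the strand setting of the counting is not given in the sources used here, their reads cannot be told apart. In all, 2 of the 16 uptake and carrier genes rose and 5 fell, with 7 calls in every fit that left out 1 library and 6 without both libraries numbered 1, where *ScpX* was lost.

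**Figure D3:**
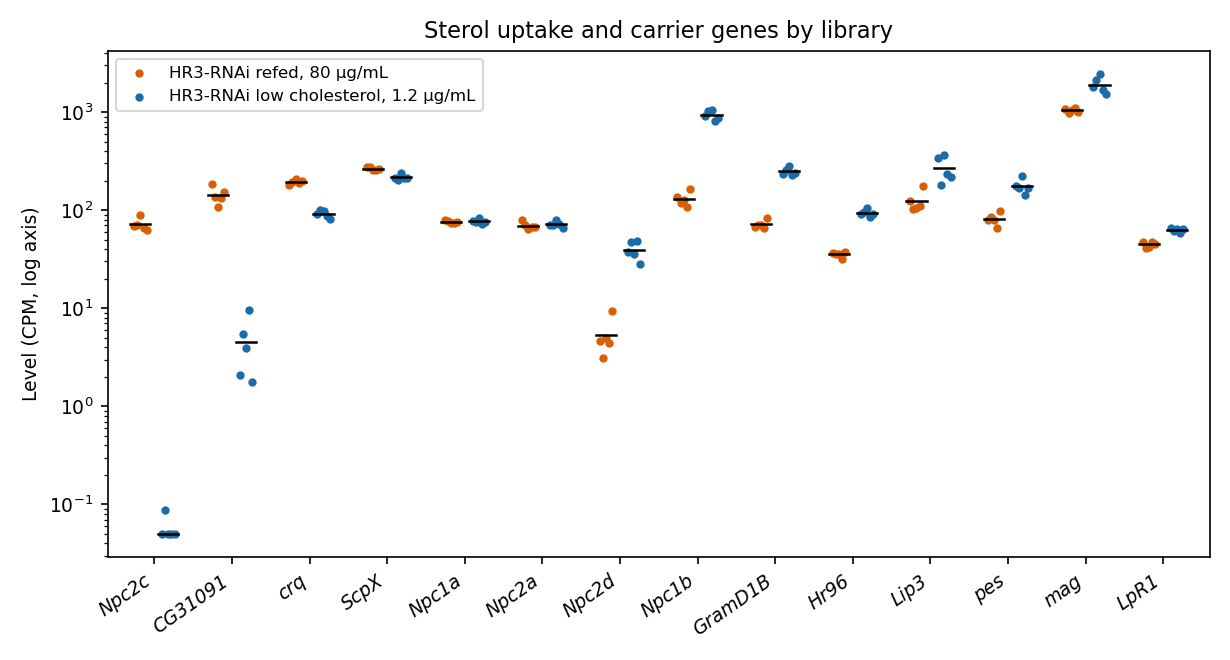
Levels of sterol-handling genes in each *HR3-RNAi* library (CPM, log scale; refed libraries left, low-cholesterol libraries right; points are libraries, values under 0.05 CPM are drawn at 0.05, horizontal lines are group means). *Npc2c* is far higher in all 5 refed libraries, and *Npc2d*, *Npc1b*, *Hr96* and *GramD1B* are lower in all 5.

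Receptors that bring lipoprotein and lipid into cells split by gene. *crq*, a CD36-family scavenger receptor named for its part in the uptake of dead cells, rose. It (FBgn0015924, chromosome 2L from 448254 to 453024) was at 182, 196, 206, 189 and 199 CPM in refed larvae, against 92.5, 101, 97.7, 87.2 and 80.8 CPM in low-cholesterol larvae (log2 fold change 1.08, standard error 0.0667, adjusted p = 2.07e-06). *crq* overlaps *ex* on the other strand, which had a lower mean level (36.1 against 143 CPM). The CD36-family gene *pes* fell (log2 fold change -1.10, adjusted p = 0.000334), and *CG3829* of the same family rose slightly (log2 fold change 0.33, adjusted p = 0.016). Without both libraries numbered 1, 2 of the 3 scavenger receptor calls were left. The call for *CG3829* was lost then and in 2 of the 10 fits (adjusted p 0.0551 without refed replicate 3), and it overlaps the more abundant *emp* on the other strand. *LpR1*, a receptor for the lipid-carrying lipophorin particle, fell (log2 fold change -0.49, adjusted p = 0.000429) and was the 1 gene called among 10 lipoprotein and lipocalin genes, all of which had negative log2 fold changes (median -0.16).

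Acid lipases, which free sterol and fatty acids from their esters, included both the second-largest rise and clear falls. *CG31091* (FBgn0051091, chromosome 3R from 25899903 to 25902172) was at 184, 137, 108, 132 and 153 CPM in refed larvae, against 2.09, 5.503, 3.89, 9.52 and 1.75 CPM in low-cholesterol larvae. The refed libraries lay far above the others (log2 fold change 4.95, standard error 0.396, adjusted p = 2.11e-05). Its neighbour *CG31089*, 470 bases further on the same strand, stood at 121, 136, 124, 125 and 121 CPM in refed larvae, against 16.9, 17.1, 15.9, 13.7 and 11.6 CPM in low-cholesterol larvae (log2 fold change 3.06, standard error 0.103, adjusted p = 1.93e-08). *CG3635* and *CG2772* of the lipase family rose less (log2 fold change 0.77, adjusted p = 0.00126 and log2 fold change 0.64, adjusted p = 0.0191).

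*mag* encodes the midgut lipase Magro, which also cleaves cholesterol esters, and it fell although it remained abundant. *mag* (FBgn0036996, chromosome 3L from 20460683 to 20462274) was at 1067, 985, 1055, 1109 and 1004 CPM in refed larvae, against 1784, 2106, 2463, 1677 and 1518 CPM in low-cholesterol larvae, without overlap (log2 fold change -0.87, standard error 0.116, adjusted p = 0.00117). *Lip3* was at 124, 103, 106, 111 and 176 CPM in refed larvae, against 342, 183, 365, 233 and 219 CPM in low-cholesterol larvae (log2 fold change -1.11, standard error 0.208, adjusted p = 0.0116), with refed replicate 5 closest to the low-cholesterol libraries. Without both libraries numbered 1 the *Lip3* call was lost, and that of *CG2772* was lost in 2 of the 10 fits (adjusted p 0.0596 without refed replicate 3). Across the 11 acid lipase genes tested, 3 rose and 2 fell (median 0.01, of a sign that changed with the scaling). The neutral lipase list had no call among 10 from edgeR's test, with 4 at an unadjusted p under 0.05 and 1 call from DESeq2's Wald test.

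All 6 lysosomal alpha-mannosidase genes, whose products trim mannose from glycoproteins in the lysosome, rose together. The list was drawn up after the values were seen and holds every gene of that name. Changes ran from 1.42 for *LManII* to 2.49 for *LManVI*, with a median of 1.82. *LManVI* (FBgn0032069, chromosome 2L from 8777661 to 8781252) was at 2307, 2512, 2732, 2177 and 2318 CPM in refed larvae, against 348, 477, 534, 400.1 and 392 CPM in low-cholesterol larvae (log2 fold change 2.49, standard error 0.118, adjusted p = 2.33e-07). *LManIII*, *LManIV*, *LManV* and *LManVI* sit side by side on chromosome 2L with gaps of 448, 601 and 1397 bases, and *LManI* and *LManII* form a pair 416 bases apart. The calls held with any 1 library left out and without both libraries numbered 1. Near-identical stretches could let these genes share reads.

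Per transcript length, the members differed widely in level. *LManVI* reached 752 ± 73.0 FPKM in refed larvae and 136 ± 24.7 FPKM in low-cholesterol larvae, *LManV* 465 ± 50.5 FPKM in refed larvae and 108 ± 16.7 FPKM in low-cholesterol larvae, and *LManI* 20.1 ± 1.48 FPKM in refed larvae and 6.66 ± 0.587 FPKM in low-cholesterol larvae. *LManIV* stayed low, at 15.4 ± 1.48 FPKM in refed larvae and 3.82 ± 0.900 FPKM in low-cholesterol larvae. A broader list of 18 other lysosomal genes, also drawn up after the values were seen, had 1 call, a rise of *Hexo1*, a hexosaminidase (log2 fold change 0.40, adjusted p = 0.024). That call was lost in 5 of the 10 fits (adjusted p 0.0647 without refed replicate 1), and the median of the list was -0.01.

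Other genes among the 15 largest rises had little annotation or belonged to transport and proteolysis. *CG10081* (FBgn0034441, chromosome 2R from 19385923 to 19389318) was at 83.5, 154, 184, 155 and 186 CPM in refed larvae, against 8.26, 5.85, 7.83, 5.38 and 7.77 CPM in low-cholesterol larvae, lowest of the refed group in replicate 1 (log2 fold change 4.44, standard error 0.229, adjusted p = 3.85e-07). It lies 957 bases from *CG10073*, which rose as well (log2 fold change 1.81, adjusted p = 0.00766). *Abca3*, an ABC transporter whose mammalian counterpart moves phospholipids, was at 182, 181, 203, 162 and 187 CPM in refed larvae, against 47.0, 57.4, 59.2, 51.6 and 57.5 CPM in low-cholesterol larvae (log2 fold change 1.75, standard error 0.0787, adjusted p = 1.83e-07). Further large rises were *CG14820* (2.11), *CG34316* (1.71), *CG12951* (1.65), *CG17570* (1.58) and *CG8087* (1.58), with adjusted p from 1.09e-05 to 0.00615.

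The largest falls held several genes known only by number. *CG7381* (FBgn0038098, chromosome 3R from 12967775 to 12977471) was at 149, 138, 166, 137 and 216 CPM in refed larvae, against 1128, 1549, 1330.0, 1209.6 and 1012 CPM in low-cholesterol larvae (log2 fold change -2.95, standard error 0.152, adjusted p = 3.85e-07). *CG14205* and *CG14219*, 2438 bases apart on the X chromosome, had log2 fold changes of -3.07 and -2.08. *CG8834* and the pseudogene *CR17024* fell by 3.39 and 3.16 on the log2 scale and were rare transcripts on both diets. *CG8834* was at 0.532, 0.394, 0.377, 0.306 and 0.454 CPM in refed larvae, against 6.999, 0.997, 5.24, 3.24 and 5.41 CPM in low-cholesterol larvae, where low-cholesterol replicate 2 stood nearest to the refed libraries.

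*CG9663*, an ABC transporter of the ABCG family, was at 22.7, 19.5, 23.1, 21.9 and 24.0 CPM in refed larvae, against 71.6, 67.6, 81.2, 59.4 and 63.2 CPM in low-cholesterol larvae (log2 fold change -1.62, standard error 0.0878, adjusted p = 5.62e-07). *CG10550*, *CG14499* and *CG44014* had log2 fold changes of -1.44, -1.50 and -1.70 (adjusted p from 0.000132 to 0.00797). *CG13325* (log2 fold change -1.74, adjusted p = 0.0442) had no overlap between diets, but its call was lost in 8 of the 10 fits (adjusted p 0.115 without refed replicate 2). Of the 55 pairs of changed genes that lay within 5000 bases of each other, 48 moved in the same direction and 7 in opposite directions, *Npc2c* and *Npc2d* among them.

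Genes of sphingolipids, membrane lipids that pack with sterols, changed on both sides of the pathway. In this list, drawn up after the values were seen, 11 of 24 genes tested changed (45.8%, against 3.44% of all genes), 4 upward and 7 downward, and the number of calls lay between 8 and 11 when 1 library was left out, lowest without refed replicate 2. The rises were those of *CDase*, *Cerk*, *Sply* and *egh*. *CDase*, a ceramidase, was at 92.2, 100.3, 108, 91.1 and 106 CPM in refed larvae, against 39.0, 52.2, 57.7, 47.9 and 46.3 CPM in low-cholesterol larvae (log2 fold change 1.03, standard error 0.0963, adjusted p = 8.28e-05). *Cerk*, the ceramide kinase, rose by 0.56 on the log2 scale (adjusted p = 0.00029), *Sply*, the lyase that ends the pathway, by 0.45 (adjusted p = 0.00784), and *egh*, a mannosyltransferase of glycosphingolipids, by 0.51 (adjusted p = 0.00245).

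The largest fall of the sphingolipid list was that of *Gba1a*, a glucocerebrosidase, which splits glucosylceramide. Its level (FBgn0051148, chromosome 3R from 23700621 to 23702605) was 194, 199, 213, 188 and 277 CPM in refed larvae, against 690.4, 832, 772, 669 and 579 CPM in low-cholesterol larvae. Refed replicate 5 was the highest of its group and still well under every low-cholesterol library (log2 fold change -1.73, standard error 0.124, adjusted p = 8.54e-06). Genes that make ceramide fell too, namely *schlank*, the ceramide synthase (log2 fold change -0.42, adjusted p = 0.000189), *ifc*, the dihydroceramide desaturase (log2 fold change -0.59, adjusted p = 0.0016), and *Fa2h*, the fatty acid 2-hydroxylase (log2 fold change -0.66, adjusted p = 0.0338). *GlcT*, which adds glucose to ceramide (log2 fold change -0.39, adjusted p = 0.0344), *Sk1*, a sphingosine kinase (log2 fold change -0.58, adjusted p = 0.0246), and *CG15533*, of the sphingomyelinase family (log2 fold change -0.77, adjusted p = 0.00243), were the other falls. *Sk1* overlaps the more abundant *Evi5* on the other strand (mean 25.1 CPM, against 11.4 CPM for *Sk1*). Calls were lost for *Fa2h* in 5 of the 10 fits (adjusted p 0.09 without refed replicate 4), *GlcT* in 7 of the 10 fits (adjusted p 0.101 without refed replicate 3) and *Sk1* in 3 of the 10 fits (adjusted p 0.067 without refed replicate 2). Without both libraries numbered 1, 9 of the 11 calls were left, with *Fa2h* and *GlcT* lost.

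**Figure D4:**
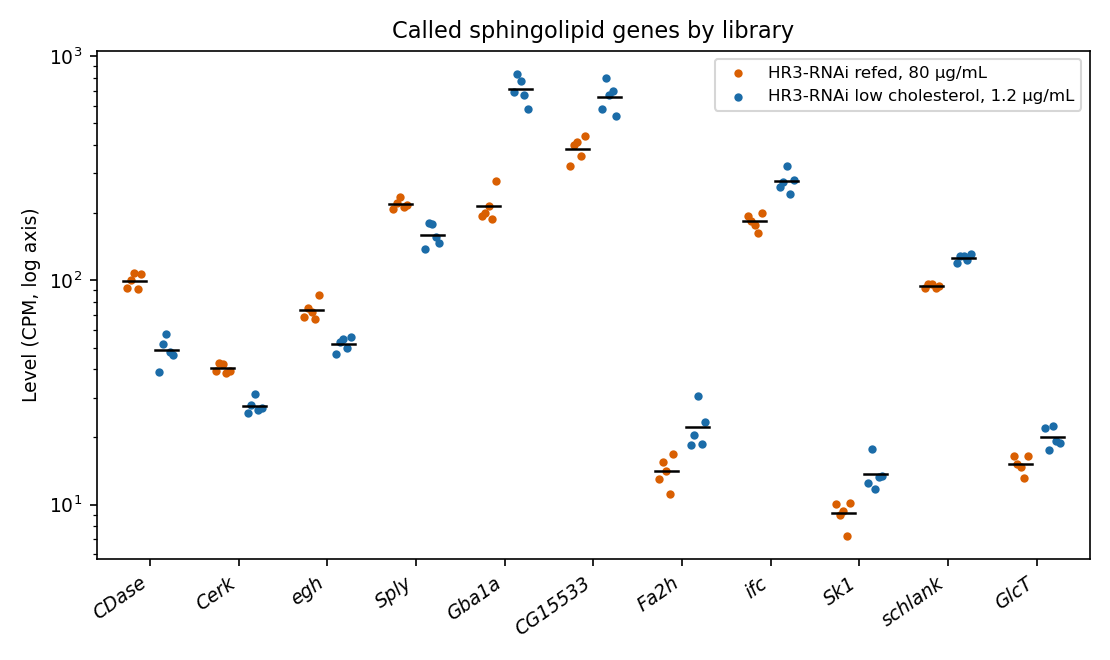
Levels of changed sphingolipid genes in each *HR3-RNAi* library (CPM, log scale; refed libraries left, low-cholesterol libraries right; points are libraries). Horizontal lines are group means. *CDase* and *Cerk* are higher and *Gba1a* and *schlank* lower in all 5 refed libraries.

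Of the enzymes that shape fatty acyl chains, 3 fell and none rose. *CG9743*, of the stearoyl-CoA desaturase family, was at 38.7, 38.7, 38.8, 34.8 and 63.0 CPM in refed larvae, against 294, 348, 389.8, 308 and 327 CPM in low-cholesterol larvae (log2 fold change -2.96, standard error 0.160, adjusted p = 5.62e-07). Refed replicate 5 was above the rest of its group but under every low-cholesterol library. Of the elongases, *Baldspot*, the fly counterpart of mammalian ELOVL6, fell by 0.92 on the log2 scale (adjusted p = 3.22e-05) and *CG31523* by 0.66 (adjusted p = 2.79e-05). These were the 3 calls among 26 elongase and desaturase genes tested (11.5%, against 3.44% of all genes). The list had a median of -0.08 and was drawn up after the values were seen.

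Genes of glycerophospholipids and of the GPI anchor, which tethers proteins to the membrane, mostly fell where they changed. There were 2 rises and 7 falls among 40 tested (22.5%, against 3.44% of all genes). This list too was drawn up with the values known. *CG33116*, a predicted phosphotransferase of phospholipid synthesis, fell most (log2 fold change -1.22, adjusted p = 1.82e-05), followed by *Gnpat*, which starts ether lipids in the peroxisome (log2 fold change -0.56, adjusted p = 0.00126), *LPCAT*, a lysophospholipid acyltransferase (log2 fold change -0.53, adjusted p = 0.00245), and *eas*, the ethanolamine kinase (log2 fold change -0.53, adjusted p = 0.00797). *Pis*, the phosphatidylinositol synthase, fell slightly (log2 fold change -0.33, adjusted p = 0.00907), as did the anchor genes *PIG-Wb* (log2 fold change -0.46, adjusted p = 0.0364) and *PIG-L* (log2 fold change -0.34, adjusted p = 0.0395). The last calls were weak, being lost for *PIG-Wb* in 7 of the 10 fits (adjusted p 0.107 without refed replicate 4) and for *PIG-L* in 8 of the 10 fits (adjusted p 0.112 without refed replicate 2). The 2 rises were those of the acyltransferases *mino* (log2 fold change 0.61, adjusted p = 0.00135), which overlaps *NSD*, and *Agpat3* (log2 fold change 0.35, adjusted p = 0.00993). Both act early in the making of glycerolipids. Without both libraries numbered 1, 7 of the 9 calls were left, with *PIG-Wb* and *PIG-L* lost.

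Genes of fat storage and fatty acid breakdown mostly rose where they changed. *Dgat2*, which completes triglyceride synthesis, rose (log2 fold change 0.69, adjusted p = 0.000999), and so did *fabp*, a fatty acid-binding protein (log2 fold change 0.42, adjusted p = 0.000865). *CROT* and *Hacl*, peroxisomal enzymes of acyl transfer and of 2-hydroxy fatty acid breakdown, rose by 0.63 and 0.37 on the log2 scale (adjusted p = 0.00959 and 0.0208). *PMP34*, a peroxisomal membrane carrier, rose by 0.35 (adjusted p = 0.00196). *CROT* overlaps the more abundant *btz* on the other strand (mean 33.1 CPM, against 18.4 CPM for *CROT*). *Acox57D-d* rose as well (log2 fold change 0.29, adjusted p = 0.0324), but it overlaps the more abundant *Sdc* and its call was lost in 6 of the 10 fits (adjusted p 0.0965 without refed replicate 3). The *Hacl* call was lost in 2 of the 10 fits (adjusted p 0.0646 without refed replicate 3) and without both libraries numbered 1. In all, 3 rises and 1 fall stood among 26 genes of fatty acid synthesis and storage, 2 rises among 20 of oxidation, and 4 rises and 1 fall among 23 peroxisome genes, the last list drawn up with the values known. Of all genes tested, 1.58% rose and 1.86% fell. Without both libraries numbered 1, 1 of the 2 oxidation calls was left (*Acox57D-d* lost). Of the 5 peroxisome calls, those of *Hacl* and *ScpX* were lost in that fit. The list then held 4 calls, which include a gene not among the 5.

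In the mevalonate and juvenile hormone list, *Jheh1* and *Jheh2*, neighbouring genes for epoxide hydrolases of juvenile hormone, rose (log2 fold change 0.40, adjusted p = 0.00615 and log2 fold change 0.48, adjusted p = 0.000236), and none of the other 11 genes tested was called. The 4 genes that process SREBP, the lipid regulator that in flies responds to phosphatidylethanolamine, had log2 fold changes below 0 without a call (median -0.09), a list drawn up with the values known. Among 14 ABCG transporters, a list made with the values known, *Atet* and *CG3164* rose (log2 fold change 0.55, adjusted p = 0.00584 and log2 fold change 0.30, adjusted p = 0.00209) beside the fall of *CG9663*.

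Genes of digestion rose more often than they fell. Of 32 Jonah and trypsin proteases, which digest protein in the midgut, 6 rose and none fell, where 1.58% of all genes rose. Of the 32, 28 were above 0, with a median of 0.23. The number of calls lay between 5 and 7 when 1 library was left out, lowest without low-cholesterol replicate 4. *Jon44E* was at 432, 340.3, 419.7, 411 and 414 CPM in refed larvae, against 172, 203, 289, 226 and 260.0 CPM in low-cholesterol larvae (log2 fold change 0.81, standard error 0.127, adjusted p = 0.00365), with refed replicate 2 the lowest refed library. *yip7* rose by 0.93 on the log2 scale, *Jon25Biii* by 0.58, *Jon65Aiii* and *iotaTry* by 0.56 each, and *Jon65Aiv* by 0.53 (adjusted p from 0.00117 to 0.0344). *Jon65Aiv* lost its call in 8 of the 10 fits (adjusted p 0.0992 without refed replicate 4). Copies of these proteases are alike in sequence and may share reads.

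The calls in carbohydrate digestion and sugar uptake were rises too, where 1.58% of all genes rose. Of 14 amylase and maltase genes, 9 were above 0 and 5 below, with a median of 0.09. The maltases *Mal-A8* and *Mal-A7*, neighbours on chromosome 2R, rose (log2 fold change 0.92, adjusted p = 0.00177 and log2 fold change 0.82, adjusted p = 0.0283), as did the amylase *Amy-d* (log2 fold change 0.74, adjusted p = 0.0122), making 3 rises among 14 amylase and maltase genes. Of these, only *Mal-A8* remained called without both libraries numbered 1, and *Mal-A7* lost its call in 7 of the 10 fits (adjusted p 0.0727 without refed replicate 3). *Glut1*, a glucose transporter, was at 37.4, 35.6, 39.8, 33.9 and 34.1 CPM in refed larvae, against 15.7, 23.2, 18.4, 18.9 and 21.04 CPM in low-cholesterol larvae (log2 fold change 0.89, standard error 0.0956, adjusted p = 0.000228). *sut1* rose too (log2 fold change 0.65, adjusted p = 0.0115), and the trehalose transporter *Tret1-1* rose less (log2 fold change 0.45, adjusted p = 0.0397). This gave 3 rises among 8 sugar transporters, where 1.58% of all genes rose. *Tret1-1* lost its call in 7 of the 10 fits (adjusted p 0.101 without refed replicate 3) and without both libraries numbered 1.

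Genes of amino acid uptake were mixed. *dmGlut*, a transporter of the glutamate family, rose (log2 fold change 0.77, adjusted p = 0.0016), 1 of 13 amino acid transporters. The aminopeptidase *CG31343* rose (log2 fold change 1.03, adjusted p = 0.0331) and *CG31198* fell (log2 fold change -0.46, adjusted p = 0.0386), but both calls were fragile, lost for *CG31343* in 9 of the 10 fits (adjusted p 0.0959 without refed replicate 3) and for *CG31198* in 7 of the 10 fits (adjusted p 0.0969 without refed replicate 2), and both without the 2 libraries numbered 1. In the list of the gut lining, *Cht4* and *Cht9*, neighbouring chitinase genes, fell (log2 fold change -1.36, adjusted p = 0.00412 and log2 fold change -1.23, adjusted p = 0.00171), while *obst-F* and *Cda9*, of chitin binding and deacetylation, rose (log2 fold change 0.45, adjusted p = 0.0412 and log2 fold change 0.39, adjusted p = 0.0359). The last calls were lost for *obst-F* in 7 of the 10 fits (adjusted p 0.117 without refed replicate 3) and *Cda9* in 8 of the 10 fits (adjusted p 0.097 without refed replicate 4). The mucin *Muc68E* rose (log2 fold change 0.90, adjusted p = 0.0228) with a loss in 5 of the 10 fits (adjusted p 0.0601 without refed replicate 2). *Cht4* in refed replicate 5, at 72.9 CPM, was nearly as high as the lowest low-cholesterol library, at 84.4 CPM.

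Of the 8 midgut markers, 7 are themselves members of the digestion lists, so their sum is no separate measure of the tissue. They summed to 9617 to 13810 CPM in refed and 7704 to 10068 CPM in low-cholesterol larvae, so that the groups overlapped, with a median log2 fold change of 0.08. The 1 call was that of *Jon65Aiv*, which alone made up 6225.1 to 9583 CPM in refed and 4779 to 6659 CPM in low-cholesterol larvae. The marker outside the digestion lists, *mex1*, was at 79.4 to 107 CPM in refed and 92.3 to 119 CPM in low-cholesterol larvae (log2 fold change -0.11, adjusted p = 0.682). Their part in the digestion results was not tested.

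Detoxification genes changed in both directions. Of 78 cytochrome P450 genes, 9 rose and 2 fell (14.1%, against 3.44% of all genes). Their count of calls lay between 6 and 12 when 1 library was left out, lowest without refed replicate 3. It was 7 without both libraries numbered 1. *Cyp6t1* (log2 fold change 1.65, adjusted p = 0.0192), *Cyp6w1* (log2 fold change 1.26, adjusted p = 0.00044), *Cyp311a1* (log2 fold change 0.87, adjusted p = 0.0216), *Cyp316a1* (log2 fold change 0.86, adjusted p = 0.0176) and *Cyp28d2* (log2 fold change 0.81, adjusted p = 0.00661) rose, and *Cyp305a1* fell (log2 fold change -1.03, adjusted p = 0.00496). *Cyp6w1* stood at 40.0 ± 6.31 CPM in refed larvae and 16.7 ± 3.72 CPM in low-cholesterol larvae. Calls were lost for *Cyp6t1* in 2 of the 10 fits (adjusted p 0.0594 without refed replicate 3), *Cyp311a1* in 4 of the 10 fits (adjusted p 0.0646 without refed replicate 3) and *Cyp316a1* in 1 of the 10 fits (adjusted p 0.0516 without refed replicate 2). *Ugt37B1*, which conjugates sugars to small molecules, rose (log2 fold change 1.06, adjusted p = 0.00876), 1 of 32 such genes. The glutathione transferase *GstD10* fell (log2 fold change -0.56, adjusted p = 0.00922), 1 of 33. Both shares, 3.1% and 3.0%, were near the 3.44% called among all genes.

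Carboxylesterases fell more often than they rose, with 4 falls and 2 rises among 16 (37.5%, against 3.44% of all genes). *Est-Q* fell most (log2 fold change -0.83, adjusted p = 9.89e-05), although it overlaps the more abundant *Glg1*, and *alpha-Est8*, *alpha-Est9* and *alpha-Est5* fell by 0.50, 0.46 and 0.36 on the log2 scale (adjusted p from 0.00069 to 0.0204). *alpha-Est2* and *clt* rose (log2 fold change 0.50, adjusted p = 0.0228 and log2 fold change 0.25, adjusted p = 0.0447). Leaving out 1 library ended the calls for *alpha-Est2* in 4 of the 10 fits (adjusted p 0.0646 without refed replicate 3), *clt* in 9 of the 10 fits (adjusted p 0.106 without low-cholesterol replicate 4), *alpha-Est5* in 2 of the 10 fits (adjusted p 0.0589 without refed replicate 3) and *alpha-Est8* in 3 of the 10 fits (adjusted p 0.0557 without refed replicate 4). In the fit without both libraries numbered 1, 5 of the 6 were left, with *clt* lost. The antioxidant genes *Sod3*, an extracellular superoxide dismutase, and *Prx2*, a peroxiredoxin, went opposite ways (log2 fold change 0.32, adjusted p = 0.0121 and log2 fold change -0.48, adjusted p = 0.000778), with *Sod3* lost without both libraries numbered 1. *MRP*, an ABC exporter of conjugates, fell (log2 fold change -0.41, adjusted p = 0.00215), and the zinc transporters *Zip71B* and *ZnT77C* fell (log2 fold change -0.54, adjusted p = 0.00147 and log2 fold change -0.28, adjusted p = 0.0136), the second overlapping the far more abundant *ND-39*.

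Amino acid metabolism had rises and falls in near balance. *CG10621*, a homocysteine methyltransferase-like gene, rose (log2 fold change 1.20, adjusted p = 7.04e-05) together with its neighbour *Bhmt* (log2 fold change 0.48, adjusted p = 0.00833). *CG6287*, for phosphoglycerate dehydrogenase of serine synthesis, fell (log2 fold change -0.60, adjusted p = 0.0029), as did *aay*, the phosphoserine phosphatase (log2 fold change -0.48, adjusted p = 0.0197), and *Cbs*, cystathionine beta-synthase (log2 fold change -0.35, adjusted p = 0.0328). *P5CS* of proline synthesis and *Got1*, an aspartate aminotransferase, rose slightly (log2 fold change 0.45, adjusted p = 0.0294 and log2 fold change 0.30, adjusted p = 0.0242). Calls were lost for *aay* in 3 of the 10 fits (adjusted p 0.0646 without refed replicate 3), *Cbs* in 7 of the 10 fits (adjusted p 0.0969 without refed replicate 2), *P5CS* in 6 of the 10 fits (adjusted p 0.0862 without refed replicate 3) and *Got1* in 7 of the 10 fits (adjusted p 0.0644 without refed replicate 1). Those of *P5CS*, *Got1* and *Cbs* were also lost without both libraries numbered 1. Among purine genes, *CG16758* fell (log2 fold change -0.48, adjusted p = 0.00237). Glycolysis (22 genes), the citrate cycle (14) and nuclear-encoded oxidative phosphorylation (31) held no call from edgeR's test, with 0, 1 and 2 genes at an unadjusted p under 0.05 and 0, 1 and 0 calls from DESeq2's test.

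Genes of cell junctions, endocytosis and the actin cortex held 24 of the 216 falls. The 4 lists described next were drawn up after the values were seen, from the genes known for each function. Of 29 septate junction and polarity genes, 7 fell and none rose (24.1%, where 1.86% of all genes fell). Over the whole list 18 genes were below 0 and 11 above, with a median of -0.03. *mesh*, *Tsp2A* and *hoka* encode the core of the smooth septate junction, which seals the midgut epithelium. *mesh* was at 292, 303, 288, 252 and 317 CPM in refed larvae, against 408, 402, 527, 351 and 384 CPM in low-cholesterol larvae, lower in every refed library (log2 fold change -0.51, standard error 0.103, adjusted p = 0.017). *Tsp2A* fell by 0.57 (adjusted p = 0.00959) and *hoka* by 0.43 (adjusted p = 0.0275) on the log2 scale. *Gli* and *bark*, of junctions where 3 cells meet, fell by 0.49 and 0.41 (adjusted p = 0.00797 and 0.0134), and the polarity genes *l(2)gl* and *aPKC* by 0.32 and 0.24 (adjusted p = 0.0297 and 0.0427).

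These junction calls were sensitive to single libraries. Their number lay between 3 and 7 when 1 library was left out, lowest without refed replicate 3, and 3 were left without both libraries numbered 1. Calls were lost for *mesh* in 1 of the 10 fits (adjusted p 0.0531 without refed replicate 3), *hoka* in 5 of the 10 fits (adjusted p 0.0851 without refed replicate 4), *l(2)gl* in 7 of the 10 fits (adjusted p 0.0926 without refed replicate 3) and *aPKC* in 8 of the 10 fits (adjusted p 0.118 without refed replicate 2), whereas *Tsp2A*, *Gli* and *bark* held in all 10 fits. The tetraspanin *Tsp29Fa* also fell (log2 fold change -0.51, adjusted p = 0.00209).

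Endocytosis showed the same sign in most members. Of 34 genes, 29 had a negative log2 fold change (median -0.11). Of the 34, 7 fell and none rose (20.6%, where 1.86% of all genes fell). They were *CHMP2B*, *Hrs* and *Stam* of the ESCRT machinery that sorts membrane proteins for breakdown (log2 fold change -0.43, adjusted p = 0.0259, log2 fold change -0.41, adjusted p = 0.0125 and log2 fold change -0.33, adjusted p = 0.0228), *shi*, the fly dynamin (log2 fold change -0.27, adjusted p = 0.00907), *SH3PX1* and *Hip1*, adaptors of membrane and actin (log2 fold change -0.35, adjusted p = 0.0329 and log2 fold change -0.28, adjusted p = 0.0259), and the ubiquitin ligase *Nedd4* (log2 fold change -0.28, adjusted p = 0.0117). The count lay between 3 and 7 when 1 library was left out, lowest without refed replicate 2. It was 3 without both libraries numbered 1, which includes a gene not among the 7. In that fit *Nedd4*, *CHMP2B*, *Stam*, *SH3PX1* and *Hip1* were lost, and *Hrs* and *shi* were kept. Calls were lost for *CHMP2B* in 5 of the 10 fits (adjusted p 0.0705 without refed replicate 4), *Stam* in 3 of the 10 fits (adjusted p 0.0709 without refed replicate 4), *SH3PX1* in 6 of the 10 fits (adjusted p 0.102 without refed replicate 3) and *Hip1* in 6 of the 10 fits (adjusted p 0.0776 without refed replicate 4). *CHMP2B* overlaps the more abundant *Dhrs4*.

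Among these lists, actin genes held the most falls, with 10 of 38 called and none that rose (26.3%, where 1.86% of all genes fell). Of the 38, 36 had a negative log2 fold change (median -0.15). *Act42A*, a cytoplasmic actin, was at 399.6, 378, 359, 382 and 480.4 CPM in refed larvae, against 529, 648, 597, 536 and 555 CPM in low-cholesterol larvae, with all refed libraries below the others (log2 fold change -0.52, standard error 0.0864, adjusted p = 0.00562). *Fim*, the bundling protein fimbrin, fell by 0.46 (adjusted p = 0.00935), the brush border myosin *Myo61F* by 0.39 (adjusted p = 0.0256) and *WASp*, an activator of actin branching, by 0.38 (adjusted p = 0.024). Smaller falls were those of *bif*, *MYPT-75D*, *flw*, *didum*, *Mlc-c* and *Shrm*, from -0.37 to -0.25 (adjusted p from 0.00728 to 0.0479). *MYPT-75D*, *flw* and *Mlc-c* belong to the control of myosin, and *didum* is a class V myosin.

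With 1 library left out, the number of actin calls lay between 3 and 10, lowest without refed replicate 2. It was 4 without both libraries numbered 1, 16 with DESeq2's Wald test and 12 in 1 fit of all 30 libraries. *Act42A*, *Fim* and *MYPT-75D* held in all 10 fits. Calls were lost for *Myo61F* in 7 of the 10 fits (adjusted p 0.0719 without refed replicate 2), *WASp* in 4 of the 10 fits (adjusted p 0.0753 without refed replicate 4), *bif* in 1 of the 10 fits (adjusted p 0.053 without refed replicate 2), *flw* in 7 of the 10 fits (adjusted p 0.131 without refed replicate 4), *didum* in 7 of the 10 fits (adjusted p 0.096 without refed replicate 3), *Mlc-c* in 8 of the 10 fits (adjusted p 0.117 without refed replicate 2) and *Shrm* in 5 of the 10 fits (adjusted p 0.0747 without refed replicate 3). Muscle markers did not share the direction, with 21 of 22 above 0, no call and summed levels of 30489 to 39628 CPM in refed and 31198 to 37997 CPM in low-cholesterol larvae. Extracellular matrix genes, many of them made by blood cells and fat body, summed to 4935 to 5248 CPM in refed and 5211 to 6189 CPM in low-cholesterol larvae, with 12 of 14 genes below 0, a median of -0.14, 8 genes at an unadjusted p under 0.05 and 5 lower without overlap (2.87% of all genes). DESeq2's test called 5 of the 14 and edgeR's 1, a fall of *Ppn* (log2 fold change -0.37, adjusted p = 0.0239), which was lost in 6 of the 10 fits (adjusted p 0.0758 without refed replicate 3).

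In signaling of immunity and stress, the falls were small. The 27 genes of the Toll, Imd, JNK and JAK/STAT pathways had a median of -0.14. Of these, 7 fell and none rose (25.9%, where 1.86% of all genes fell). They were the Toll ligand *spz* (log2 fold change -0.33, adjusted p = 0.016), the NF-kappaB factors *Dif* and *dl*, neighbours on chromosome 2L (log2 fold change -0.26, adjusted p = 0.0108 and log2 fold change -0.30, adjusted p = 0.028), the JNK target factor *Jra* (log2 fold change -0.37, adjusted p = 0.032), *Stat92E* (log2 fold change -0.33, adjusted p = 0.0223), the Imd inhibitor *pirk* (log2 fold change -0.56, adjusted p = 0.0495) and the phosphatase *Ptp61F* (log2 fold change -0.24, adjusted p = 0.00482). *Ptp61F*, *spz* and *Dif* held in all 10 fits, and calls were lost for *dl* in 6 of the 10 fits (adjusted p 0.0852 without refed replicate 4), *Jra* in 7 of the 10 fits (adjusted p 0.0961 without refed replicate 3), *Stat92E* in 4 of the 10 fits (adjusted p 0.0721 without refed replicate 3) and *pirk* in 9 of the 10 fits (adjusted p 0.127 without refed replicate 4). The count was lowest, at 3, without refed replicate 2, and also 3 without both libraries numbered 1, where *Dif* was among those lost. In 1 fit of all 30 libraries it was 1, with *pirk* still called and *Ptp61F*, *spz* and *Dif* among those lost. No antimicrobial peptide gene was called among 10 by edgeR's or DESeq2's test (median 0.26, with 2 at an unadjusted p under 0.05), and the lysozyme *LysS* rose (log2 fold change 0.71, adjusted p = 0.00362).

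Heat shock genes leaned downward, with 18 of 22 below 0 and a median of -0.15. Of the 22, 2 were called (9.09%, against 3.44% of all genes). *DnaJ-1*, the main Hsp40 co-chaperone, was at 26.8, 34.8, 31.97, 27.6 and 27.9 CPM in refed larvae, against 64.8, 71.8, 80.4, 81.9 and 69.3 CPM in low-cholesterol larvae (log2 fold change -1.30, standard error 0.0901, adjusted p = 6.11e-06). The groups were well separated. *Hsp83*, the fly Hsp90, fell by 0.40 on the log2 scale (adjusted p = 0.00294). *Vha100-5*, a membrane subunit of the vacuolar proton pump, fell (log2 fold change -0.51, adjusted p = 0.00866). It was the 1 call among 30 pump genes (3.33%, near the 3.44% of all genes). Other called genes were *Obp44a*, an odorant-binding protein that overlaps *Pabp2* (log2 fold change 0.49, adjusted p = 0.0225), and *Fancl* (log2 fold change -1.04, adjusted p = 0.000604). *Fancl* lies next to *Npc2d* and overlaps *ohgt*. The *Obp44a* call was lost in 4 of the 10 fits (adjusted p 0.0657 without refed replicate 4). *Fancl* is outside the naming rule and was singled out after its values were seen.

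Hormone and growth genes were largely without calls. None of 10 genes of ecdysone synthesis and breakdown, 20 of the ecdysone response, 9 of salivary glue and 6 hexamerins was called, nor any of 41 insulin and TOR pathway genes (median -0.03) or 22 autophagy genes (median -0.01). Glue genes had a median of -1.52, with 6 of 9 below 0. At an unadjusted p under 0.05 from edgeR's test, these lists held 2, 3, 1, 0, 8 and 4 genes in the order given, where 14.6% of all genes passed, and DESeq2's Wald test with adjustment called 2 insulin and TOR pathway genes, 2 autophagy genes and none in the other 4 lists.

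Calls among translation genes depended on the test. Of 88 cytosolic ribosomal protein genes, 84 were above 0 with a median of 0.12, and 1 was called, *RpL41* (log2 fold change 0.43, adjusted p = 0.0201), whose call was lost in 2 of the 10 fits (adjusted p 0.0576 without refed replicate 3). DESeq2's Wald test called 15 of the 88, 40 passed at an unadjusted p under 0.05, and in 29 every refed library was above every low-cholesterol one (2.88% of all genes). None of the 88 was called without both libraries numbered 1. None was called among 70 mitochondrial ribosomal proteins (median -0.04), 54 translation factors (0.00, of a sign that changed with the scaling), 31 aminoacyl-tRNA synthetases (-0.05), 23 ribosome biogenesis genes (0.11), 47 proteasome subunits (0.05) or 44 genes of the cell cycle and DNA replication (0.10). At an unadjusted p under 0.05 these lists held 2, 2, 1, 1, 2 and 2 genes in the order given, and DESeq2's test called 1 translation factor and none in the other 5 of these 6 lists. Aminoacyl-tRNA synthetases lay below 0 in 26 of 31.

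Markers of other tissues gave no call in fat body (8 genes, median 0.05), neurons (16, 0.19), blood cells (9, -0.09), imaginal discs (16, 0.09) or trachea (4, -0.07). Testis markers differed widely between pools, at a sum of 105 to 469 CPM in refed and 234 to 504 CPM in low-cholesterol larvae, with none of 24 called. At an unadjusted p under 0.05 from edgeR's test, 3 neuron and 3 disc markers passed and none of the fat body, blood cell, trachea or testis markers, and DESeq2's test called 1 neuron marker. The *roX* RNAs of male dosage compensation averaged 6.61 in refed and 6.69 in low-cholesterol larvae on the log2 CPM scale (exact permutation test, two-sided, p = 0.794). With the *roX* level as a covariate, 481 genes were called.

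To set the response beside that of larvae without the RNAi construct, the same test was run in control larvae. There 436 of 11374 genes were called (3.83%), 284 upward (2.5%) and 152 downward (1.34%). The genes called in both numbered 179, which is 44.8% of the calls in *HR3-RNAi* larvae and 41.1% of those in controls, and none was called in opposite directions. With DESeq2's test, controls had 729 calls and the shared genes were 43.1% of the calls in *HR3-RNAi* larvae and 41.7% of those in controls, with 5 genes called in opposite directions. With the replicate number as a block, controls had 209 calls, and the shares were 35.6% in *HR3-RNAi* larvae and 62.2% in controls. Among the genes that changed in *HR3-RNAi* larvae, 174 of the 184 rises and 199 of the 216 falls had the same sign in controls. Of the rises, 102 (55.4%) were also called in controls, and of the falls 77 (35.6%). The median change of the rises was 0.64 in *HR3-RNAi* larvae and 0.50 in controls, and that of the falls was -0.46 in *HR3-RNAi* larvae and -0.24 in controls. These genes were chosen by their change in *HR3-RNAi* larvae, which by itself tends to make the first value of each pair the larger in size. Spread between replicates also differed, with a biological coefficient of variation of 18.6% in *HR3-RNAi* larvae and 25.9% in controls. Mean *roX* level was 62.9 CPM in refed controls (10.5 to 170) and 116 CPM in low-cholesterol controls (66.8 to 188). Total counts averaged 24289672 in refed and 29759328 in low-cholesterol controls, a difference opposite in direction to that in *HR3-RNAi* larvae. The part of either in the control response was not tested.

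Several sterol genes had similar values in both genotypes. Log2 fold changes in *HR3-RNAi* larvae and controls were -2.84 and -2.83 for *Npc1b*, -2.88 and -2.51 for *Npc2d*, -1.41 and -1.50 for *Hr96*, -1.79 and -1.75 for *GramD1B*, 4.95 and 5.25 for *CG31091*, and -0.87 and -1.27 for *mag*. The uptake and carrier, scavenger receptor and acid lipase lists had medians of 0.03, 0.01 and 0.01 in *HR3-RNAi* larvae. In controls these were 0.07, 0.07 and -0.02. The lipoprotein and lipocalin list had medians of -0.16 in *HR3-RNAi* larvae and 0.03 in controls. The mannosidase genes had medians of 1.82 and 2.13 in the same order. For the lists of small falls, which were drawn up with the *HR3-RNAi* values known, the medians in *HR3-RNAi* larvae and controls were -0.15 and -0.02 for actin genes, -0.11 and -0.04 for endocytosis genes, -0.14 and -0.00 for the immune signaling genes, and -0.03 and -0.02 for the junction genes. Controls had 0, 2, 1 and 2 calls in these 4 lists. Choosing genes by their values in *HR3-RNAi* larvae by itself tends to bring the control value nearer 0.

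The difference in response between the genotypes was tested for each gene as an interaction. None of 12178 genes passed after adjustment (lowest adjusted p = 0.271), and 818 (6.72%) had an unadjusted p under 0.05 from edgeR's quasi-likelihood test. Of the genes called in *HR3-RNAi* larvae, 31 of the 184 rises and 59 of the 216 falls were among these 818. Counting members called or not, so were 17 of 38 actin, 8 of 29 junction, 1 of 27 immune signaling and 0 of 34 endocytosis genes. These lists were drawn up with the *HR3-RNAi* values known, which by itself tends to raise such counts. Also among the 818 were 7 of 14 extracellular matrix genes, 7 of 16 neuron markers and 7 glue genes. Of the glue genes, 9 were tested in *HR3-RNAi* larvae and 5 in controls. Neuron markers had a median of 0.19 in *HR3-RNAi* larvae and -0.40 in controls, where 3 were called lower. A difference in response is thus not shown for any single gene with this test. With the *roX* level as a covariate, 0 genes passed. DESeq2's test of the same contrast called 37 genes, 9 of them called in *HR3-RNAi* larvae, and edgeR on the 20 libraries of the 2 genotypes called 1, *CadN*, which was not called in *HR3-RNAi* larvae.

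*CG8087* had the lowest unadjusted interaction p among the named genes (3.17e-05, adjusted p = 0.271). Its level in *HR3-RNAi* larvae was 191, 274, 293, 243 and 163 CPM in refed larvae, against 79.9, 123.4, 50.3, 65.9 and 70.3 CPM in low-cholesterol larvae, with a log2 fold change of 1.58, against -0.83 in controls (adjusted p = 0.271 in controls). *Cerk* and *egh* rose in both genotypes, by 0.56 and 0.51 in *HR3-RNAi* larvae and by 0.94 and 1.09 in controls (interaction adjusted p = 0.271 and 0.271). *Vha100-5* fell by 0.51 in *HR3-RNAi* larvae against a value of -0.06 in controls (unadjusted p = 0.00096, adjusted p = 0.398). All 4 were among the DESeq2 interaction calls.

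Subunits of the vacuolar proton pump, which acidifies lysosomes and other compartments, stood out among the DESeq2 interaction calls and were singled out after the values were seen. They made up 9 of the 37, namely *Vha16-1*, *Vha68-2*, *Vha55*, *Vha26*, *VhaAC45*, *Vha44*, *VhaAC39-1*, *VhaPPA1-1* and *Vha100-5*. Log2 fold changes of the first 8, none of them called in *HR3-RNAi* larvae alone, lay between -0.26 and -0.17 in *HR3-RNAi* larvae and between 0.16 and 0.24 in controls. Over all 30 pump genes tested, 23 were below 0 in *HR3-RNAi* larvae, with a median of -0.15 there and 0.10 in controls (28 tested), and 13 had an unadjusted interaction p under 0.05 from edgeR's test. No pump gene passed that test after adjustment, so the difference rests on DESeq2's test alone.

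**Figure D5:**
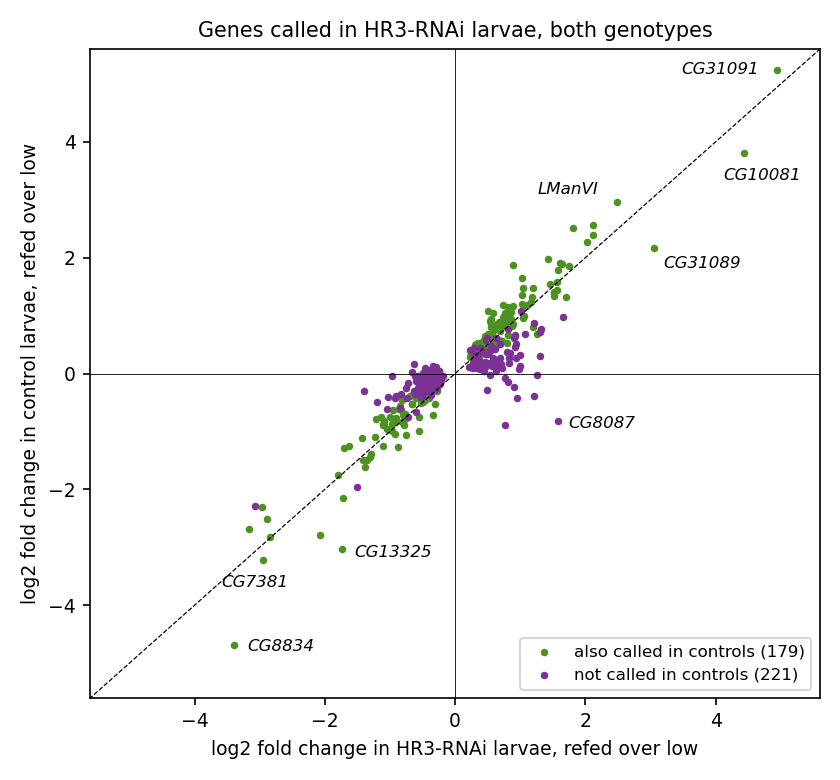
Change on refeeding in *HR3-RNAi* larvae against the change in controls (log2 fold change, refed over low cholesterol) for the genes called in *HR3-RNAi* larvae; *Npc2c* lies outside the axes. Most points lie in the quadrants of equal sign, 174 of the 184 rises and 199 of the 216 falls.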

How the data were processed

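RNA was extracted from pools of 5 whole larvae with a Qiagen RNeasy kit and sequenced by NovoGene, and the authors deposited the read counts per gene, without normalization, together with FPKM values, per the file headers. The submitters' processing notes name CASAVA, HISAT2, StringTie, featureCounts, DESeq2 and edgeR, while the genome build, library kit and strand setting are not given in the sources used here. FPKM values, as the authors deposited them, served only to compare levels between genes. Positions come from the BDGP6 annotation, and 1678 of 1696 genes with a position in the study's own table lay within 1000 bases of it.

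The 5 refed and 5 low-cholesterol *HR3-RNAi* libraries were compared on the counts with edgeR 4.0.16 in R 4.3.3 (TMM scaling, filterByExpr, glmQLFit and glmQLFTest), with Benjamini-Hochberg adjustment over all genes tested and a threshold of 0.05. Controls were tested in the same way, and the interaction in 1 fit of all 30 libraries. Single values were compared with exact permutation tests (scipy 1.17.1). The code was tested on simulated data. Alternatives were DESeq2 1.42.0, other scalings and filters, thinned counts, a *roX* covariate, a replicate block and each library left out. Named genes are the 15 largest rises and 15 largest falls that were called, without overlap and with an average of at least 1 log2 CPM, the called members of each list (up to 6 by size), the NPC genes, *Hr96*, *mag* and *Hr3*, and *Fancl*, *Ptp61F*, *DnaJ-1*, *CG33116*, *CG31523* and further members of the later lists, which were named with their values known. The members, the 67 lists and 12 later lists were chosen with earlier results of these data known. Lists by protein domain could not be made, since the files carry no domains, and were rebuilt from gene symbols. No library was left out of the comparison. One called gene is counted in the lists but not reported here by name.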

Additional observations from a re-analysis of the deposited data

Results flagged for a closer look

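For each of the 172 named genes, the 5 libraries of each diet were examined for 1 library that stood apart, with a gap to its nearest neighbour above 0.71 of the whole range. Of 344 groups examined, 23 had such a library, where chance at 1 in 20 would give 17.2.

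Refed replicate 1 was far above the rest for *clt* at 43.0 CPM (others 37.0 to 38.3), *Got1* at 477 CPM (others 432 to 444) and *Npc2f* at 84.4 CPM (others 69.1 to 73.4). Refed replicate 2 was far above the rest for *CG31089* at 136 CPM (others 121 to 125). Refed replicate 2 was far below the rest for *Jon44E* at 340.3 CPM (others 411 to 432). Refed replicate 3 was far above the rest for *Ugt37B1* at 70.1 CPM (others 53.8 to 56.4). Refed replicate 3 was far below the rest for *spz* at 24.0 CPM (others 27.6 to 28.9). Refed replicate 4 was far above the rest for *Obp44a* at 221 CPM (others 184 to 193). Refed replicate 4 was far below the rest for *Hr96* at 32.1 CPM (others 35.8 to 37.1), *Tret1-1* at 119.9 CPM (others 139 to 142) and *CHMP2B* at 13.4 CPM (others 15.6 to 16.5). Refed replicate 5 was far above the rest for *CG9743* at 63.0 CPM (others 34.8 to 38.8), *Gba1a* at 277 CPM (others 188 to 213), *Lip3* at 176 CPM (others 103 to 124) and *Cht4* at 72.9 CPM (others 32.8 to 40.0). Refed replicate 5 was far below the rest for *LysS* at 1558 CPM (others 2149 to 2354).

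Low-cholesterol replicate 1 was far above the rest for *Muc68E* at 4.62 CPM (others 2.60 to 3.13). Low-cholesterol replicate 1 was far below the rest for *CG13325* at 9.19 CPM (others 12.7 to 13.7). Low-cholesterol replicate 2 was far above the rest for *Sk1* at 17.6 CPM (others 11.8 to 13.4). Low-cholesterol replicate 3 was far above the rest for *LManIV* at 15.8 CPM (others 9.30 to 11.1), *ScpX* at 238 CPM (others 205 to 213), *SH3PX1* at 99.1 CPM (others 75.8 to 79.7) and *WASp* at 93.9 CPM (others 69.5 to 73.4). With edgeR on all 30 libraries, no difference in response between *HR3-RNAi* larvae and controls passed its test.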

How the results depend on the processing

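All values are counts of called genes unless stated. In *HR3-RNAi* larvae, DESeq2's Wald test called 705 genes (319 higher, 386 lower) in place of 400, and 1695 passed at an unadjusted p under 0.05. With 1 library left out, the count lay between 254 and 419 (118 to 215 higher, 136 to 208 lower). DESeq2's size factors gave 415, no filter on low counts 365, a minimum of 50 counts in 5 libraries 454, all 30 libraries in 1 fit 354, the *roX* covariate 481, thinned counts 424, and leaving out both libraries numbered 1, an alternative chosen after seeing the data, 305. In controls DESeq2 called 729 genes, a replicate block 209, and leaving out 1 library 289 to 443. The interaction called 0 with any library left out, 1 in the fit of 20 libraries and 37 with DESeq2. With 1 library left out, the difference in total counts lay between 4580408 and 6593940 (exact p 0.0159 to 0.0317) and that in *roX* level between -0.20 and 0.13 on the log2 scale, refed minus low cholesterol (exact p 0.571 to 0.952).

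With the replicate number as a block, 365 genes were called in *HR3-RNAi* larvae (182 higher, 183 lower) and none in the interaction. Of 164 named calls, 23 were lost with it, *shi*, *spz*, *Dif* and *ScpX* among them, and the actin list kept 6 of 10. Same-numbered libraries correlated at 0.0115 to 0.512 in their deviations from the group means (mean 0.214, against -0.0491 for other pairs), not all over 0.1, and only 2 of 5 refed libraries correlated best with their own number, so the numbers were not taken to pair libraries. Of 164 named genes called, 96 kept their call in all 19 alternatives, 112 kept it in all 10 fits with 1 library left out, and none reversed. Of the named genes without a call, *Npc1a* lay between -0.033 and 0.0189 and *Npc2h* between -0.0793 and 0.309 on the log2 scale with 1 library left out. Low-count genes limit the depth, as for *Hr3*.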

Other observations

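Some changed genes that the lists do not cover lay side by side and moved together. They were singled out after the values were seen. *CG8329*, *CG18179* and *CG18180*, on chromosome 3L with gaps of 249 and 872 bases, rose by 0.94, 0.68 and 0.81 on the log2 scale. The alkaline phosphatase genes *Alp10* and *Alp9*, 269 bases apart, rose by 0.63 and 0.92. *Chs2*, the chitin synthase of the gut lining, rose by 0.73 and lies 2037 bases from *P5CS*. Among the falls, *prt*, 1593 bases from *Gba1a*, had a log2 fold change of -1.38, and *CG32107* and *CG10943*, 411 bases apart, had log2 fold changes of -1.05 and -1.10. The adjusted p of each was under 0.05 by edgeR's quasi-likelihood test.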
